A study of Mus musculus with 6 samples.

Results

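The transcription factor p53 is activated by DNA damage and other stress and switches on genes that stop the cell cycle, repair DNA, restrain growth signalling or start cell death. Its own inhibitor Mdm2 is among these genes, so that p53 output feeds back on p53 protein. In developing B cells DNA breaks arise normally during antibody gene rearrangement, and Cre recombinase can itself damage DNA, which makes p53 targets a useful readout in a Cre experiment. The p53 genes described here were 10 genes chosen by symbol: Trp53 itself, its inhibitor and target Mdm2, the cell cycle genes Cdkn1a, Btg2 and Ccng1, the death and autophagy genes Bax and Trp53inp1, the AKT inhibitor gene Phlda3 and the sestrin genes Sesn1 and Sesn2. Of the 10 genes, 7 had a probe set of their own among 19938 genes on the array, and each was measured by 1 probe set. Cdkn1a was read from 1 probe set that also carries the symbol 4930567H12Rik, so its values are given apart, and the other 2 members, Trp53 and Bax, were not analysed here.

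RNA came from pre-B cells of C57BL/6 background transformed with BCR-ABL1, the fusion kinase of Ph+ acute lymphoblastic leukaemia (ALL), and was hybridised to 6 Affymetrix arrays. On 3 arrays the cells had been transduced with PMIP-CRE-ERT2, a Cre recombinase that tamoxifen activates, and on 3 arrays with PMIP-ERT2, the same tamoxifen-binding domain without Cre. Every sample carried the genotype Inpp5d fl/fl, was selected with puromycin and had 4OH-Tamoxifen at 0.5 µM for 2 days. Inpp5d encodes the lipid phosphatase SHIP1. No group had Cre without floxed alleles, so effects of Cre activity and of the Inpp5d alleles cannot be told apart. Nothing in the labels ties an array to a culture or animal of its own, so p-values measure the spread between these samples alone, possibly a technical one.

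Values are log2 signals as deposited, and a difference is the mean of the arrays labelled Cre-ERT2 minus the mean of the ERT2 arrays. The targeted gene did not check the labels in the direction of a deletion: Inpp5d was at 13.37, 13.34 and 13.34 in the arrays labelled Cre-ERT2, against 13.20, 13.21 and 13.17 in the ERT2 arrays (limma adjusted p = 0.0545). The sources used here do not say whether its probe set lies within the floxed exons, and groups are therefore named by their labels. The 9 B lineage marker genes on the array averaged 12.59 to 12.62 in the arrays labelled Cre-ERT2 and 12.61 to 12.63 in the ERT2 arrays. Within that list 1 gene fell and 1 rose: Cd22, which encodes an inhibitory B cell receptor, by 0.51 (limma adjusted p = 0.00448), and Dntt, which encodes terminal transferase, by 0.33 (0.0176). The list averages of other cell types were dimmer, and each was higher in the arrays labelled Cre-ERT2, as dim genes were in general (median difference 0.11 to 0.12 in the 3 dimmest of 10 bins of genes by level). The 12 myeloid genes averaged 7.63 to 7.71 in the arrays labelled Cre-ERT2, against 7.51 to 7.56 in the ERT2 arrays, and the 8 T and NK genes 7.05 to 7.20 in the arrays labelled Cre-ERT2, against 6.95 to 7.04 in the ERT2 arrays. The 6 erythroid and megakaryocyte genes averaged 7.76 to 7.91 in the arrays labelled Cre-ERT2, against 7.69 to 7.74 in the ERT2 arrays, and the 8 stromal genes 7.90 to 8.05 in the arrays labelled Cre-ERT2, against 7.76 to 7.87 in the ERT2 arrays. Of these 34 markers, 18 passed the filter on dim genes and 1 passed the test, the myeloid gene Lyz2, which rose by 0.79 (adjusted p = 0.00588). Of the 5 myeloid genes tested, 3 had a negative difference. Cd22, Dntt and Lyz2 are named because they passed, after their values were seen. The part of such cells in the results was not tested. The array labelled Cre-ERT2 3 correlated with ERT2 3 (r = 0.997) and ERT2 1 (0.996) more closely than with Cre-ERT2 1 (0.994) and Cre-ERT2 2 (0.995). Counts are therefore also given without Cre-ERT2 3. That array was singled out for its likeness to the ERT2 arrays, so a higher count without it is no independent check. Other arrays were also closer to an array of the other group than to one of their own. Cre-ERT2 1 was slightly closer to ERT2 3 (0.9927) than to Cre-ERT2 2 (0.9923). Cre-ERT2 2 was closer to ERT2 3 (0.9941) than to Cre-ERT2 1 (0.9923). ERT2 1 and ERT2 3 were closer to Cre-ERT2 3 (0.9963 and 0.9967) than to ERT2 2 (0.9950 and 0.9945). Only ERT2 2 was closer to each array of its own group than to any array labelled Cre-ERT2. These correlations are over all probe sets, which do not vary independently.

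The letters that p53 recognises were looked for in the promoter windows of the members, because all are listed as targets of 1 factor. RefSeq windows of GRCm38.p6, from 250 bases before to 50 bases after an annotated start, were found for 7 of the 8 members with values (9 windows, with a pair of starts each for Cdkn1a and Sesn1). The motif was the p53 half-site consensus, 10 bases long and its own reverse complement, so that both strands were read at once. An exact half-site was found in 4 of the 9 windows (44.4%), against 20% of the 45 windows of other p53 targets and 8.36% of all 32851 windows, and its inner CNNG core was in 100% of all windows. The stretches that hold a half-site are printed 5′ to 3′ on the strand of the gene, with capitals for exact half-sites and for 10 bases directly beside one that differ from the consensus at no more than 1 position.
Cdkn1a, chr17:29090886-29090967, + strand: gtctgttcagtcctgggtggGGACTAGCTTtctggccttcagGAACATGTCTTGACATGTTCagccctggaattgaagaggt
Ccng1, chr11:40755442-40755501, - strand: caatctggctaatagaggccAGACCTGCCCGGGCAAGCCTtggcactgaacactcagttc
Mdm2, chr10:117710915-117710964, - strand: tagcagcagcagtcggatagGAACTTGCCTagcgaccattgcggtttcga
Sesn1, chr10:41887246-41887295, + strand: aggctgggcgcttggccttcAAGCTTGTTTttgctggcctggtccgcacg

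Cdkn1a and Ccng1 are the windows in which 2 half-sites adjoin, the arrangement p53 binds as a tetramer. The exact half-sites of the Cdkn1a window, which belongs to its upstream start, begin at positions -73 and -51 relative to that start, and the adjoining half-site at -41 differs at 1 base. In Ccng1 the exact half-site begins at -185, and the adjoining one at -195 differs at 1 base. Such an adjoining pair was found in 4.44% of the windows of other p53 targets and 0.0883% of all windows; it was added to the search after the Cdkn1a letters had been seen. The half-sites of Mdm2 and Sesn1 stood alone, at -186 and -173. The windows of Btg2, Sesn2 and Phlda3 held no exact half-site, which says only that these letters are not in those windows, and Trp53inp1 had no entry in the table. Of the 4 genes with a half-site, 0 were among the 3 members called in the comparison of expression, of which 2 had a window. Cdkn1a was fitted apart from those members, so it could not be counted among them. With so few genes, this count cannot tell whether half-sites and calls are related.

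Of the 7 members with their own probe set, 3 rose in the arrays labelled Cre-ERT2 and 0 fell. They were Sesn2, Btg2 and Trp53inp1, and 4 did not pass (limma, adjusted p under 0.05 over 14953 genes; 5 higher and 0 lower at an unadjusted p under 0.05). Over all genes tested, 7.62% were called, 3.5% higher and 4.13% lower, and at an unadjusted p under 0.05 19% were higher and 14.4% lower. In RNA from whole cultures, a change in the share of cells expressing a gene and a change of its RNA per cell cannot be told apart. The differences were small: Sesn2 was 1.23-fold, Btg2 1.19-fold and Trp53inp1 1.15-fold higher. All 7 members had a positive difference, as had 8469 of all 14953 genes. The median of the members was 0.20 on the log2 scale, against 0.026 over all genes tested. In 5 of the 7 every array labelled Cre-ERT2 lay above every ERT2 array, which held for 20.7% of all genes tested. All 7 passed the filter on dim genes, and the dimmest, Sesn2, was brighter than 71.5% of genes.

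**Figure D1:**
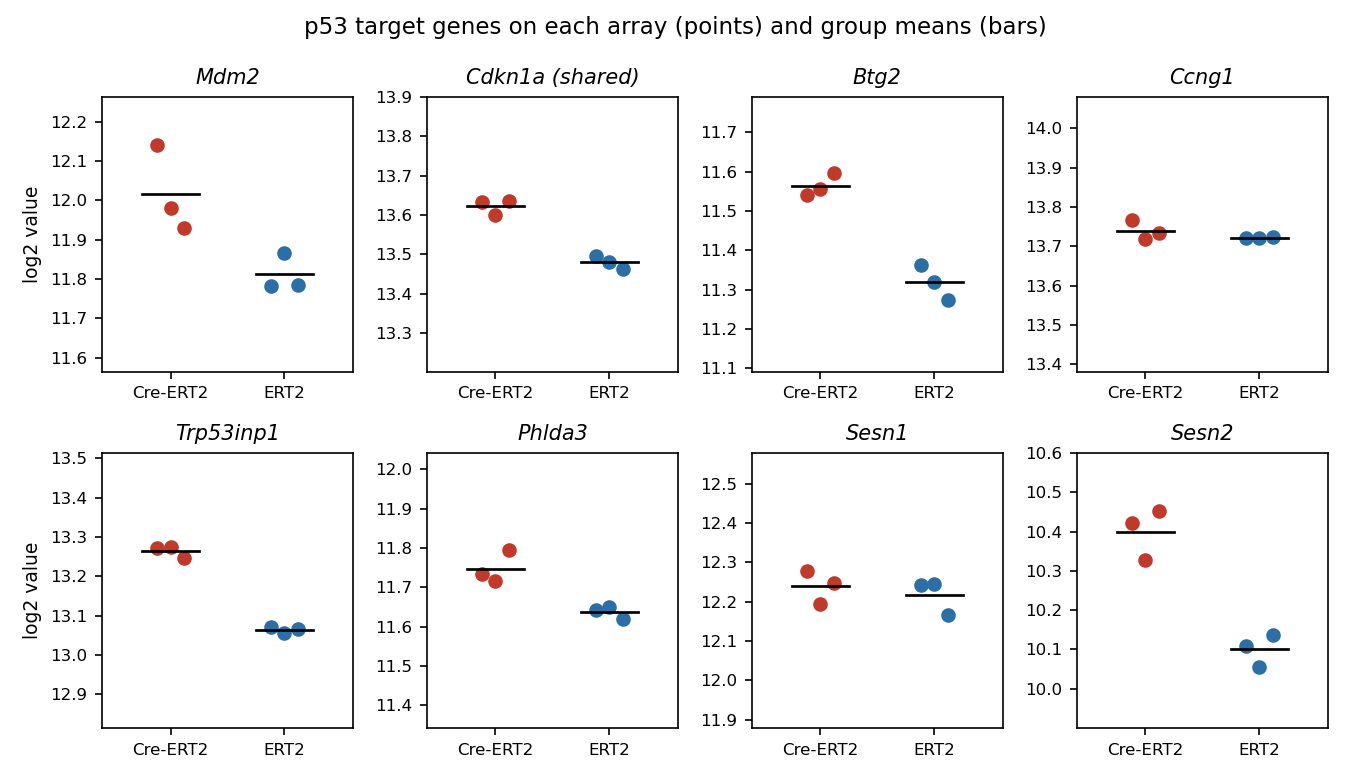
Log2 values of 8 p53 target genes on each array (points) with group means (black bars), the arrays labelled Cre-ERT2 left of the ERT2 arrays; every panel spans the same height on the log2 scale, and Cdkn1a is read from a probe set shared with 4930567H12Rik. The groups separate in 6 panels and overlap for Ccng1 and Sesn1.

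Mdm2 encodes the ubiquitin ligase that marks p53 for degradation and is itself induced by p53. Its log2 values came to 12.14, 11.98 and 11.93 in the arrays labelled Cre-ERT2, against 11.78, 11.87 and 11.79 in the ERT2 arrays. The groups did not overlap, but Cre-ERT2 1 stood above the others and the spread within that group (SD 0.11, n = 3) was the widest among the 7 members. The difference of 0.20 ± 0.063 (SE; 95% interval 0.061 to 0.35) missed the threshold (limma adjusted p = 0.0738). Without Cre-ERT2 1 the difference of Mdm2 was 0.14 (adjusted p = 0.168), and without Cre-ERT2 3 it was 0.25 and passed (adjusted p = 0.0371).

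Cdkn1a encodes p21, the inhibitor of cyclin-dependent kinases through which p53 holds cells in G1. Its shared probe set was at 13.63, 13.60 and 13.64 in the arrays labelled Cre-ERT2, against 13.50, 13.48 and 13.46 in the ERT2 arrays. The groups did not overlap and each spanned less than the gap between them. In a fit over all 17557 named probe sets tested, of which 2.95% were called higher, the difference of 0.14 ± 0.041 (SE) did not pass (limma adjusted p = 0.0695). How much of the signal of this probe set comes from each of its 2 symbols was not tested; RefSeq places 4930567H12Rik on another chromosome.

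Btg2 encodes an antiproliferative cofactor of the mRNA deadenylase complex. Its log2 values came to 11.54, 11.55 and 11.60 in the arrays labelled Cre-ERT2, against 11.36, 11.32 and 11.27 in the ERT2 arrays. The lowest array labelled Cre-ERT2 was 0.18 above the highest ERT2 array. Btg2 rose by 0.25 ± 0.046 (SE) on the log2 scale (95% interval 0.14 to 0.35, limma adjusted p = 0.0243). Ccng1, which encodes cyclin G1, a partner of the phosphatase PP2A that acts on Mdm2, was among the brightest genes on the array (level above 99.6% of genes). Its log2 values came to 13.77, 13.72 and 13.74 in the arrays labelled Cre-ERT2, against 13.72, 13.72 and 13.73 in the ERT2 arrays. The groups overlapped, and the difference of 0.018 (95% interval -0.077 to 0.11) missed the threshold (limma adjusted p = 0.773).

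Trp53inp1 encodes a stress protein that promotes p53-dependent cell death and takes part in autophagy. It was at 13.27, 13.27 and 13.25 in the arrays labelled Cre-ERT2, against 13.07, 13.06 and 13.07 in the ERT2 arrays. These were the tightest groups of any member whose groups separated (SD 0.015 and 0.0075, n = 3 each). The rise of Trp53inp1 was 0.20 ± 0.041 (SE) on the log2 scale (95% interval 0.11 to 0.29, limma adjusted p = 0.0315).

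Phlda3 encodes a small protein whose pleckstrin homology domain competes with that of AKT for phosphoinositides at the membrane, the lipids on which SHIP1 also acts. Its log2 values came to 11.73, 11.72 and 11.79 in the arrays labelled Cre-ERT2, against 11.64, 11.65 and 11.62 in the ERT2 arrays. The groups did not overlap, but the gap between them was 0.066 on the log2 scale. The difference of 0.11 ± 0.044 (SE; 95% interval 0.0097 to 0.21) did not pass (limma adjusted p = 0.125).

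Sestrins lower mTORC1 activity and oxidative stress, and Sesn2 also serves as a leucine sensor. Sesn2 was at 10.42, 10.33 and 10.45 in the arrays labelled Cre-ERT2, against 10.11, 10.06 and 10.14 in the ERT2 arrays. It had the widest gap among the 7 members, 0.19 on the log2 scale, and the largest rise, 0.30 ± 0.051 (SE; 95% interval 0.18 to 0.42, limma adjusted p = 0.0193). Sesn1 was at 12.28, 12.19 and 12.25 in the arrays labelled Cre-ERT2, against 12.24, 12.25 and 12.17 in the ERT2 arrays. Its groups overlapped, and its difference of 0.022 (95% interval -0.086 to 0.13) did not pass (limma adjusted p = 0.756). The difference of Sesn2 exceeded that of Sesn1 by 0.28, and the within-array gap between both genes separated the groups completely (exact permutation test over arrays, two-sided, p = 0.1, the smallest that 3 against 3 arrays can give). Sesn3, a sestrin gene activated by FOXO factors, had a difference of 0.17 (adjusted p = 0.0743), and Sesn2 exceeded it by 0.13 (exact permutation p = 0.1). These were 2 of 3 pairs of related genes compared, all chosen after their values were seen, each with an exact permutation p = 0.1 after Benjamini-Hochberg adjustment.

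**Figure D2:**
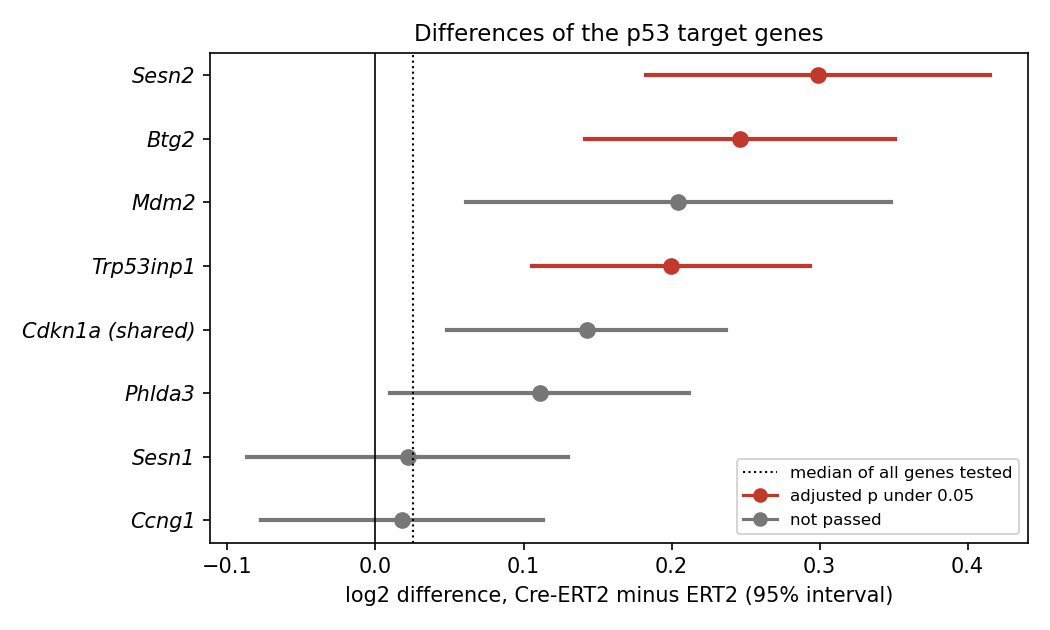
Log2 differences (points) of 8 p53 target genes, arrays labelled Cre-ERT2 minus ERT2 arrays, with 95% intervals (lines); red marks an adjusted p under 0.05, and the dotted line is the median of all genes tested (0.026). Sesn2 (0.30), Btg2 (0.25) and Trp53inp1 (0.20) passed, and the intervals of Sesn1 and Ccng1 include 0.

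The calls depended on which arrays were fitted, while the direction of the called members did not. Without Cre-ERT2 1, without ERT2 1 or without ERT2 2, 0 of the 7 members passed (limma adjusted p of Sesn2 0.0772, 0.0966 and 0.0780; 4 members had an unadjusted p under 0.05 in each of these fits). Without ERT2 3 only Sesn2 passed, without Cre-ERT2 2 Sesn2 and Btg2 did, and without Cre-ERT2 3 the same 3 members and Mdm2 did. Over the 6 fits the difference of Sesn2 lay between 0.27 and 0.34, that of Btg2 between 0.22 and 0.27 and that of Trp53inp1 between 0.20 and 0.21. A fit with an array left out has fewer degrees of freedom. Over all 14953 genes, calls ranged from 116 without ERT2 1 to 3042 without Cre-ERT2 3, against 1140 with all arrays. Without Cre-ERT2 1, 136 genes passed and 3831 had an unadjusted p under 0.05. The counts of members called are therefore not on the same footing between these fits.

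Differences also varied with the level of a gene. With all genes tested put in 10 bins of equal size by mean level, the median difference was 0.11, 0.12 and 0.12 in bins 1, 2 and 3, the dimmest. In bins 7, 9 and 10, which hold the 7 members, it was -0.061, -0.030 and -0.0090. Of the genes in bin 7, where Sesn2 lies, 30.6% had a positive difference, as had 38.9% in bin 9 (Mdm2, Btg2 and Phlda3) and 45.1% in bin 10 (Trp53inp1, Ccng1 and Sesn1). Centring each array on its median moved the median of all genes by -0.10, to -0.077. After that shift the difference of Sesn2 was 0.20, of Btg2 0.14, of Mdm2 0.10, of Trp53inp1 0.097, of the Cdkn1a probe set 0.040 and of Phlda3 0.0084, none of which passed, and those of Ccng1 and Sesn1 were -0.084 and -0.081. Scaling that follows the level left 3 members called: the differences of Sesn2, Btg2 and Trp53inp1 were 0.32, 0.27 and 0.20 after quantile normalization and 0.33, 0.28 and 0.21 after cyclic loess.

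**Figure D3:**
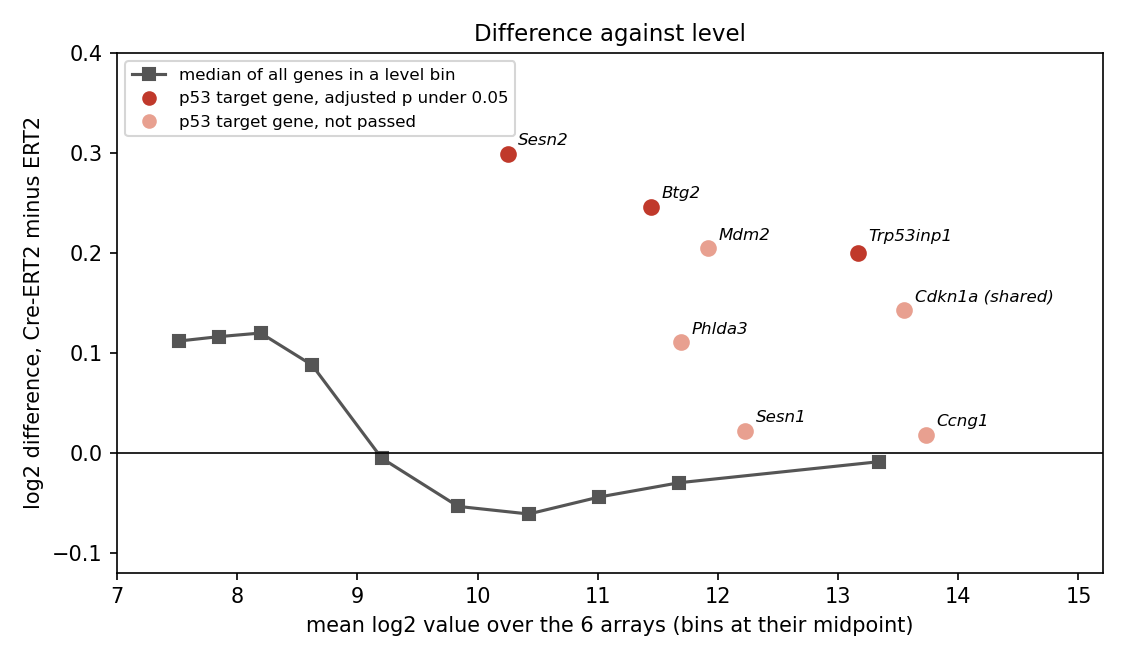
Log2 difference, arrays labelled Cre-ERT2 minus ERT2 arrays, against mean log2 value over the 6 arrays; squares are medians of all genes in 10 bins by level, circles the p53 target genes (dark red, adjusted p under 0.05). The medians are near 0.12 for dim genes and below 0 from bin 5 upward, and the 8 target genes lie above them.

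Among other targets of p53 few genes were called. Of 39 further targets listed, 38 had a probe set and were tested: limma called 2 higher and 0 lower, and 36 missed the threshold (5.26% higher, against 3.5% of all genes; 10 higher and 5 lower at an unadjusted p under 0.05, against 19% and 14.4% of all genes), with a median difference of 0.055. The genes that rose were Ak1, which encodes a cytosolic adenylate kinase, by 0.27 (limma adjusted p = 0.0255), and Sulf2, which encodes an extracellular sulfatase, by 0.24 (adjusted p = 0.0488). After quantile normalization neither Ak1 (adjusted p = 0.134) nor Sulf2 (0.0692) passed, and after cyclic loess Ak1 did not. The death receptor gene Fas had log2 values of 7.95, 8.06 and 8.25 in the arrays labelled Cre-ERT2, against 7.74, 7.95 and 7.70 in the ERT2 arrays, and a difference of 0.29 that did not pass (adjusted p = 0.0772). The difference of Fas was 0.18 after quantile normalization (limma adjusted p = 0.358) and 0.19 after cyclic loess (0.287). Ddit4, which encodes an mTORC1 inhibitor, and the excision repair endonuclease gene Ercc5 had differences of 0.24 and 0.16 (adjusted p = 0.0565 and 0.0584). Ddit4 and Ercc5 passed after quantile normalization and after cyclic loess, and neither passed after median centring.

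The BH3-only death genes Pmaip1 and Bbc3, which encode NOXA and PUMA, were not called and had differences of -0.092 (95% interval -0.24 to 0.060) and 0.055 (-0.067 to 0.18). Zmat3, which encodes an RNA-binding protein, and the exonuclease gene Aen had 0.095 and 0.090 (limma adjusted p = 0.196 and 0.249). The signs of Bbc3, Zmat3 and Aen turned negative after centring.

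Among genes that control p53, 1 of 23 tested was higher, 1 lower and 21 did not pass by limma (4.35% in each direction, near the 3.5% higher and 4.13% lower of all genes). Huwe1, which encodes a ubiquitin ligase with p53 among its substrates, rose by 0.29 (limma adjusted p = 0.0473), and Bmi1, which encodes the Polycomb protein that represses the Cdkn2a locus, fell by 0.30 (adjusted p = 0.0424). Mdm4, the partner of Mdm2 that masks the activation domain of p53, was at 12.19, 12.14 and 11.98 in the arrays labelled Cre-ERT2, against 11.86, 11.88 and 11.89 in the ERT2 arrays. As for Mdm2, the array labelled Cre-ERT2 3 was the nearest to the ERT2 arrays, and the difference of 0.23 did not pass (adjusted p = 0.0563). Cdkn2a, whose ARF product inhibits Mdm2, had a difference of -0.11 (adjusted p = 0.161), the checkpoint kinase gene Chek1 -0.16 (0.0632) and the repressor gene Bcl6 0.10 (0.162). The log2 values of Cdkn2a came to 10.01, 9.95 and 10.05 in the arrays labelled Cre-ERT2, against 10.10, 10.07 and 10.19 in the ERT2 arrays, all above the filter level of 7.35.

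Among genes of DNA damage signalling and repair, each call was a fall. Of 43 tested, limma called 0 higher and 4 lower, and 39 missed the threshold (9.30% lower, against 4.13% of all genes; 1 higher and 15 lower at an unadjusted p under 0.05, against 19% and 14.4%). Of the 43, 37 had a negative difference, as had 6484 of all 14953 genes, and the median was -0.082. By level, 35 of the 43 lie in bins 6 to 9, where the medians of all genes were between -0.061 and -0.030. Apex1, which encodes the endonuclease of base excision repair, fell by 0.31 (limma adjusted p = 0.0244), and the clamp loader gene Rad17 by 0.31 (0.0445). Xrcc5, which encodes Ku80 of end joining, fell by 0.25 (0.0474), and Rad54l, of homologous recombination, by 0.21 (0.0497). Rad54l did not pass after quantile normalization or cyclic loess. Gadd45a, a damage-inducible gene that p53 activates, was at 9.11, 9.01 and 9.12 in the arrays labelled Cre-ERT2, against 9.08, 9.08 and 9.13 in the ERT2 arrays, and its difference of -0.017 did not pass (adjusted p = 0.818).

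Mitotic genes that p53 lowers through p21 and the DREAM repressor complex gave 0 higher, 1 lower and 24 not passed of 25 by limma (4% lower, near the 4.13% of all genes; 1 higher and 5 lower at an unadjusted p under 0.05, against 19% and 14.4%), with a median of -0.033. Birc5, which encodes survivin, fell by 0.20 (limma adjusted p = 0.0461), but did not pass after quantile normalization or cyclic loess. Melk and Tpx2, which encode mitotic regulators, and the phosphatase gene Cdc25c had differences of -0.30, -0.15 and -0.17 (adjusted p = 0.0549, 0.0738 and 0.0960). Of the 5 other CDK inhibitor genes, 0 were called by limma (0 also at an unadjusted p under 0.05), and their differences lay between -0.070 for Cdkn1b and 0.036 for Cdkn2c. The value of Cdkn1b depended on the probe set: with the mean of its probe sets the difference was -0.27 (limma adjusted p = 0.0908).

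Some members answer to other factors as well, and those pathways were set beside them. Sesn2 is also a target of ATF4, the factor of the amino acid and unfolded protein response. Of the 20 other genes of the ATF4 response, limma called 0 higher and 6 lower, and 14 missed the threshold (30% lower, against 4.13% of all genes; 1 higher and 10 lower at an unadjusted p under 0.05, against 19% and 14.4%). The median was -0.090, and 6 of the 20 had a positive difference, against 8469 of all 14953 genes. By level, 5 of the 20 lie in bins 6 to 9 and 6 in bin 10. Chac1, which encodes a glutathione-degrading enzyme, fell by 0.56 (limma adjusted p = 0.00343) and the asparagine synthetase gene Asns by 0.42 (0.00536). The tRNA synthetase genes Sars and Nars fell by 0.27 and 0.21 (limma adjusted p = 0.0165 and 0.0412). Nars did not pass after quantile normalization (limma adjusted p = 0.0556). Sesn1 can be activated by FOXO factors. Of 16 further FOXO-activated genes, limma called 0 higher and 2 lower, and 14 missed the threshold (12.5% lower, against 4.13% of all genes; 3 higher and 2 lower at an unadjusted p under 0.05, against 19% and 14.4%). The median was 0.057, and 13 of the 16 had a positive difference, as had 8469 of all 14953 genes. By level, 10 of the 16 lie in bins 6 to 9 and 3 in bin 10. The transcriptional regulator gene Cited2 fell by 0.41 (adjusted p = 0.00972) and Ccng2, the cyclin G2 relative of Ccng1, by 0.33 (0.0146). The difference of Ccng1 exceeded that of Ccng2 by 0.35 (exact permutation test, two-sided, p = 0.1, the smallest possible). Of the called genes named outside the members, Chac1, Asns, Cd22 and Lyz2 passed with each array left out, and each of the others missed the threshold both without ERT2 1 and without ERT2 2.

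**Figure D4:**
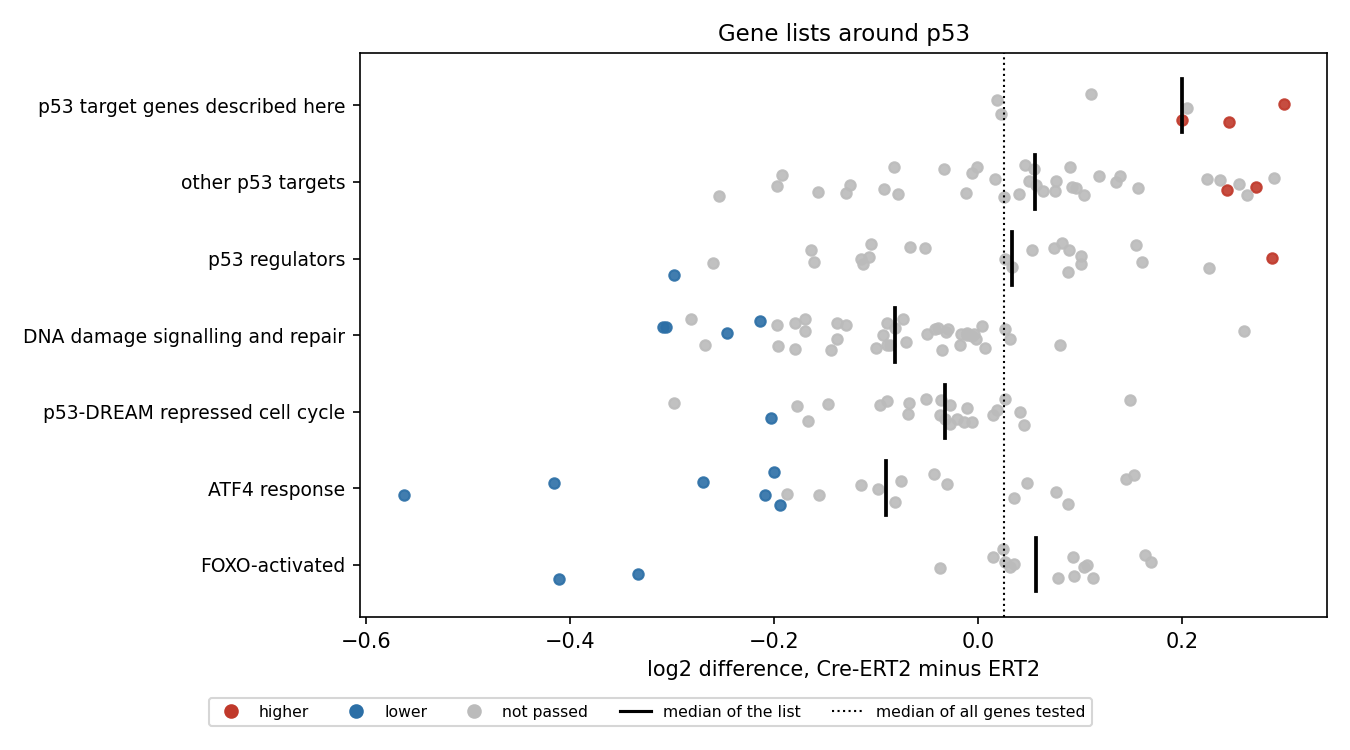
Log2 differences, arrays labelled Cre-ERT2 minus ERT2 arrays, of the genes tested in 7 lists (points; red higher, blue lower, grey not passed), with the median of each list (black) and of all genes tested (dotted, 0.026). The medians are 0.20 for the 7 p53 target genes, 0.055 for other p53 targets, -0.082 for DNA damage signalling and repair and -0.090 for the ATF4 response.

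The genes most like Cdkn1a and Mdm2 in pattern were found by the root mean square difference of log2 values centred on each gene's mean over the 6 arrays. Among 14953 genes compared, Bcl2l11, which encodes the BH3-only protein BIM, was nearest to the Cdkn1a probe set (0.014 log2 units). The citrate carrier gene Slc25a1 (0.014) and the receptor gene Treml2 (0.015) followed. The differences of Bcl2l11, Slc25a1 and Treml2 were 0.16, 0.15 and 0.16, and none passed. The laminin gene Lama5 (0.017), the myoglobin gene Mb (0.020) and Dock10 (0.020), which encodes an activator of small GTPases, were nearest to Mdm2, each with its highest value in Cre-ERT2 1, as for Mdm2. Their differences were 0.18, 0.21 and 0.20, and none passed. After quantile normalization they were 0.083 for Lama5, 0.11 for Mb and 0.20 for Dock10. All of these genes were picked for their likeness on these same 6 arrays, so shared peaks and similar differences follow from the choice.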

How the data were processed

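The deposited table holds log2 values of 35556 probe sets on 6 arrays. The submitters' processing notes name RMA and Partek 6.5, with neither role nor settings. The authors' log2 values were used as deposited and ranged from 2.88 to 14.94. The sources used here do not give the genome build behind the probe sets. Probe sets were named through the array's annotation table: 21789 carried 1 symbol, 1621 several and 12146 were not named by it. For each gene the probe set with the highest mean was used. Genes with a mean below the 25th percentile (7.35) were left out. With array signals there is no read depth to report; the 3 arrays in each group set the precision.

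Groups came from the sample titles. limma 3.58.1 in R 4.3.3 (lmFit, eBayes, two-sided) was fitted on all 14953 genes with Benjamini-Hochberg adjustment and a threshold of 0.05; it was also tested on simulated data. The members and gene lists were chosen with earlier results of these data known, so lists are described by counts and medians without a list test. The named genes were the members, Inpp5d, up to 4 genes of smallest p per list, a fixed set of p53 pathway genes and the 3 nearest patterns to Cdkn1a and Mdm2. Promoter windows came from RefSeq, read with Python 3.11.15 and pandas 2.3.3; figures used matplotlib 3.10.9. Alternatives varied the filter, probe set rule, scaling, variance model, block, threshold and arrays.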

Additional observations from a re-analysis of the deposited data

How the results depend on the processing

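The 3 calls among the members rest on 3 arrays a group and on the scaling. Across the 15 alternatives that gave a value, the differences of Sesn2, Btg2 and Trp53inp1 stayed positive. The count of members called was 2 to 4 under the other settings of filter, probe set rule, level-dependent scaling and variance model. Median centring gave 0 of 7 members by limma (1 at an unadjusted p under 0.05, beside 5123 of all 14953 genes). It gave 3020 genes in all (7.4% of them higher, against 45.9% as deposited) and 6 of 38 other p53 targets, all lower. A threshold of 0.01 gave 0 members, 143 genes and 0 other targets. At an unadjusted p under 0.05 the same fit had 5 of 7 members, 15 of 38 other targets and 4993 of all 14953 genes. No filter gave 437 genes and 1 other target, trend and robust estimation 2147 genes and 4 other targets, and array weights 3993 genes and 11 other targets. The filter alternatives change the number of genes tested; the cause of the other changes was not tested.

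With arrays left out in turn, 0 to 4 members, 116 to 3042 genes and 0 to 5 other targets were called. The lowest count of genes came without ERT2 1, and the highest counts without Cre-ERT2 3. The replicate block gave 0 members, 147 genes and 0 other targets. At an unadjusted p under 0.05 that limma fit had 4 of 7 members, 12 of 38 other targets and 3960 of all 14953 genes. Same-numbered arrays did not deviate together (correlations of their deviations from group means 0.069, -0.17 and -0.40), so the numbers were not treated as pairs.

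Among the genes named, signs turned only for genes that were not called. After median centring Ccng1 was at -0.084, Sesn1 -0.081, Cdkn2c -0.066, Bbc3 -0.048, Aen -0.012, Zmat3 -0.0071 and Bcl6 -0.0023. Bcl6 was at -0.0072 after quantile normalization and Gadd45a at 0.0057 with array weights. With arrays left out, the differences ranged from -0.0038 to 0.045 for Sesn1, -0.037 to 0.019 for Gadd45a, -0.0065 to 0.083 for Cdkn2c and -0.046 to 0.020 for Cdkn2d.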
